A study of Ovis aries with 18 samples.

Results

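miR-17-5p, miR-106b and miR-25 are the 3 miRNAs described here, out of 364 features counted in sheep plasma, 107 of them named miRNAs. They were taken by name, as the rows oar-miR-17-5p, oar-miR-106b and oar-miR-25 of the count table, which represent the miR-17/92 cluster and its paralog, the miR-106b/25 cluster. All 3 matched a miRNA gene in RefSeq's annotation of ARS-UI_Ramb_v3.0, a sheep genome. That annotation lists no gene between those of miR-17-5p and miR-19b, which may reflect genes it leaves out. In it the genes of miR-106b and miR-25 lie within the span of MCM7, a gene for a DNA replication helicase. The build of the count files is not given in the sources used here, so no coordinates are printed.

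MicroRNAs are short RNAs that pair with messenger RNAs through their seed, the bases near the 5′ end, and lower the output of those messages. The miR-17/92 cluster is 1 primary transcript that yields several mature miRNAs and is best known for promoting the cell cycle and cell survival. miR-106b has the seed of miR-17-5p, while miR-25 has the seed of miR-92a, so that miRNAs cut from the same transcript can belong to different target families. In blood, members of these clusters are abundant in red blood cells and their precursors, and plasma also carries miRNAs released from platelets, leukocytes and tissues. Fewer cells of a type and less RNA released per cell cannot be told apart in plasma.

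The study followed leptin resistance in 12 Polish Longwool ewes, every one ovariectomized and given estradiol implants. The 6 ewes of the CTRL group ate a standard diet, and the 6 of the OBESE group ate high-fat feed over 14 weeks. Plasma from weeks 7, 10 and 14 yielded 18 libraries, 3 for each diet at each week, from 200 µL each. Ages and body weights are not in the labels, nor is it stated if libraries hold single ewes or pools, or if a replicate number follows 1 ewe over time. Every p-value thus reflects only how libraries vary, which may be partly technical, and the same ewe may have given several libraries of its diet.

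Total counts ran from 388574 to 1269829 per library. Levels are given as CPM, counts scaled to a common library total and by a TMM factor, which sets the typical miRNA equal between libraries. Replicate 1 of CTRL week 7 and replicate 3 of CTRL week 14 stood apart, with TMM factors of 0.653 and 0.718 against at least 0.891 in the other 16 libraries, and with 53.9% and 55.1% of their counts in miR-16b against 42.7% to 51.4% elsewhere. Of the 16 miRNAs of these clusters and seed families looked for, 5 are named in the table, and the other 11, among them miR-20a, miR-92a and miR-93, were not analysed here. miR-17-5p, miR-106a, miR-106b, miR-20a and miR-93 are close in sequence, and how reads that fit several of them were assigned is not given, so the split of counts among them is uncertain.

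miR-17-5p was counted 203 to 913 times per library, miR-106b 45 to 216 times and miR-25 428 to 1756 times. By mean CPM they ranked 58th, 81st and 30th of the 168 features that passed a filter on low counts, and all 3 passed it. Counting error alone gives a coefficient of variation (CV) of 3.31% to 7.02% for miR-17-5p, 6.80% to 14.9% for miR-106b and 2.39% to 4.83% for miR-25. The CV between libraries of the same diet and week, as the root mean square over the 6 groups, was 21.0%, 26.4% and 28.0%. Taken over the 6 groups, the spread between libraries was thus larger than counting error for each of them. It was not so in every group. The lowest CVs were 2.95% for miR-17-5p and 5.34% for miR-106b, both in OBESE week 7 and below these ranges of counting error. For miR-25 the lowest was 4.16%, in OBESE week 14 and within its range.

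miR-17-5p gives the cluster its name and is its main representative here. In CTRL plasma it stood at 651, 497 and 579.5 CPM at week 7, at 669.9, 458 and 623 CPM at week 10, and at 1093, 463 and 632 CPM at week 14 (replicates 1, 2 and 3). In OBESE plasma it stood at 589, 576 and 611 CPM at week 7, at 339.6, 370.3 and 400.3 CPM at week 10, and at 422, 373 and 389.6 CPM at week 14. The diets overlapped at week 7, and at weeks 10 and 14 every OBESE library was below every CTRL library. At these later weeks every OBESE library was also below every OBESE library of week 7.

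Group means of miR-17-5p were 576 ± 77.0 CPM in CTRL and 592 ± 17.5 CPM in OBESE at week 7, 584 ± 111 and 370.1 ± 30.3 CPM at week 10, and 729.7 ± 326 and 395 ± 24.8 CPM at week 14 (SD, n = 3 each). In descending order the groups ran CTRL week 14, OBESE week 7, CTRL week 10, CTRL week 7, OBESE week 14 and OBESE week 10. Neighbours in this order differed by less than the larger of their SDs, except for the gap of 181 CPM between CTRL week 7 and OBESE week 14, whose ranges did not overlap, though they did without TMM scaling. The spread was uneven as well, with a CV of 2.95% to 8.20% in the OBESE groups and 13.4% to 44.7% in the CTRL groups, the last through replicate 1 of week 14.

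**Figure D1:**
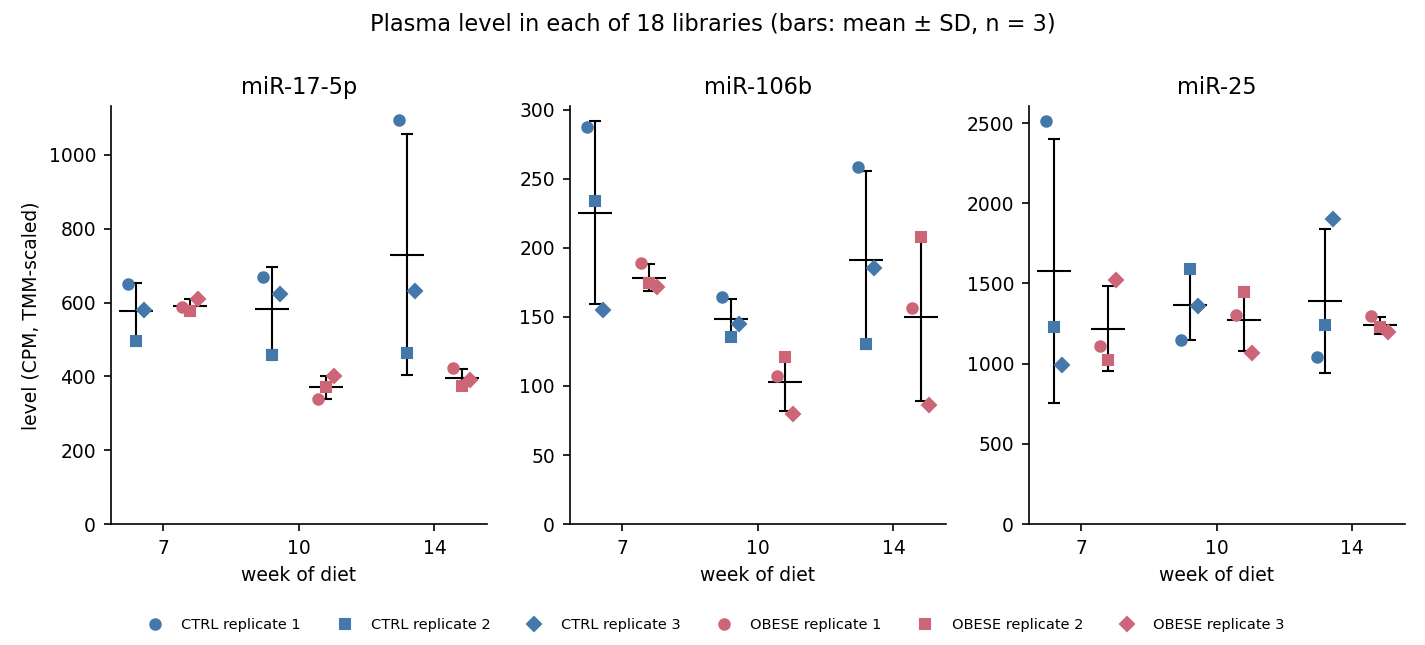
Level of miR-17-5p, miR-106b and miR-25 in each library (y axis, TMM-scaled CPM from 0) by week of diet (x axis), CTRL in blue and OBESE in red, with a marker shape per replicate number and black bars for the mean ± SD of 3 libraries. The 6 OBESE libraries of weeks 10 and 14 lie between 339.6 and 422 CPM for miR-17-5p, below the other 12, while the diets overlap at each week for miR-25.

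Averaged over the 3 weeks, miR-17-5p had an OBESE against CTRL log2 fold change of -0.50 (SE 0.15, 95% interval -0.82 to -0.18), from means of 452 ± 107 CPM (OBESE) and 629.8 ± 192 CPM (CTRL; SD over 9 libraries each). The difference did not pass edgeR's quasi-likelihood test once adjusted over all 168 features (Benjamini-Hochberg adjusted p = 0.167), although its p had rank 3 of the 168. The share of features called in this comparison was 0%, and 5.36% had an unadjusted p under 0.05 with a lower level in OBESE, as miR-17-5p did. A two-sided exact permutation of the diet labels within weeks (8000 assignments) gave miR-17-5p an exact p of 0.008, adjusted over the 168 features to 0.289. The labels were shuffled separately in each week, as if libraries of different weeks were unrelated. That p thus does not allow for the same ewe recurring over weeks. When CTRL week 14 replicate 2 was left out and features were filtered anew, an alternative chosen after seeing the data, miR-17-5p passed at -0.60 (edgeR adjusted p = 0.0483), while it had an adjusted p of 0.0731 with the same 168 features. Over all alternatives its adjusted p ranged from 0.0483 to 0.639.

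By week, the log2 fold change of miR-17-5p between the diets was 0.04 (SE 0.26) at week 7, -0.66 (SE 0.26) at week 10 and -0.88 (SE 0.261) at week 14. The edgeR adjusted p was 0.981, 0.642 and 0.319, so that none passed, and at week 14 its p was the smallest of the 168. The share of features whose OBESE libraries all lay below the CTRL libraries was 2.98% at week 7, 6.55% at week 10 and 2.38% at week 14. Without CTRL week 14 replicate 1, the library with the highest level, the week 14 value was -0.47.

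Within the OBESE diet miR-17-5p had a log2 fold change of -0.68 (SE 0.26) at week 10 and of -0.58 (SE 0.26) at week 14, both against the same week 7 libraries. Within CTRL the values were 0.02 (SE 0.26) and 0.34 (SE 0.259), the latter -0.07 without CTRL week 14 replicate 1. None passed, with edgeR adjusted p of 0.897 and 0.605 in OBESE and 0.974 and 0.977 in CTRL. The share of features with no overlap and a lower level in OBESE was 9.52% for week 10 and 8.33% for week 14 against week 7, so that a separation like that of miR-17-5p was not rare in either comparison taken alone.

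The diet difference of miR-17-5p was itself compared between weeks. Week 14 against week 7 gave a log2 difference of -0.93 (SE 0.368, edgeR adjusted p = 0.41), and week 10 against week 7 gave -0.70 (SE 0.367, edgeR adjusted p = 0.692), so neither passed. The joint test of diet and week gave an adjusted p of 0.912 (unadjusted 0.0553), and 4.17% of features had an unadjusted p under 0.05 in it.

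A grouping noticed after the values were seen was that all 6 OBESE libraries of weeks 10 and 14 had less miR-17-5p than all other 12 libraries, at 339.6 to 422 against 458 to 1093 CPM. Of the 168 features, 0.595% showed this, which is miR-17-5p alone, and 0 showed the opposite. It depends on the scaling. With levels scaled to the library total alone, without a TMM factor, these 6 libraries ran from 369 to 480.4 CPM and the other 12 from 425 to 1215 CPM, and 0% of features separated the sets. On that scale the diets also overlapped at week 14. The week 10 separation from CTRL was present on that scale too, by a narrow margin of 441 against 446 CPM. So was the separation of weeks 10 and 14 from OBESE week 7. This last was found in 0.595% of features, again miR-17-5p alone, against 2.38% (4 features, let-7g the other named one) with TMM. In raw counts per 1000 of miR-16b the diets overlapped at week 10, with OBESE libraries up to 0.961 and CTRL libraries from 0.890. In that ratio OBESE week 14, up to 1.078, also overlapped OBESE week 7, from 1.058.

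**Figure D2:**
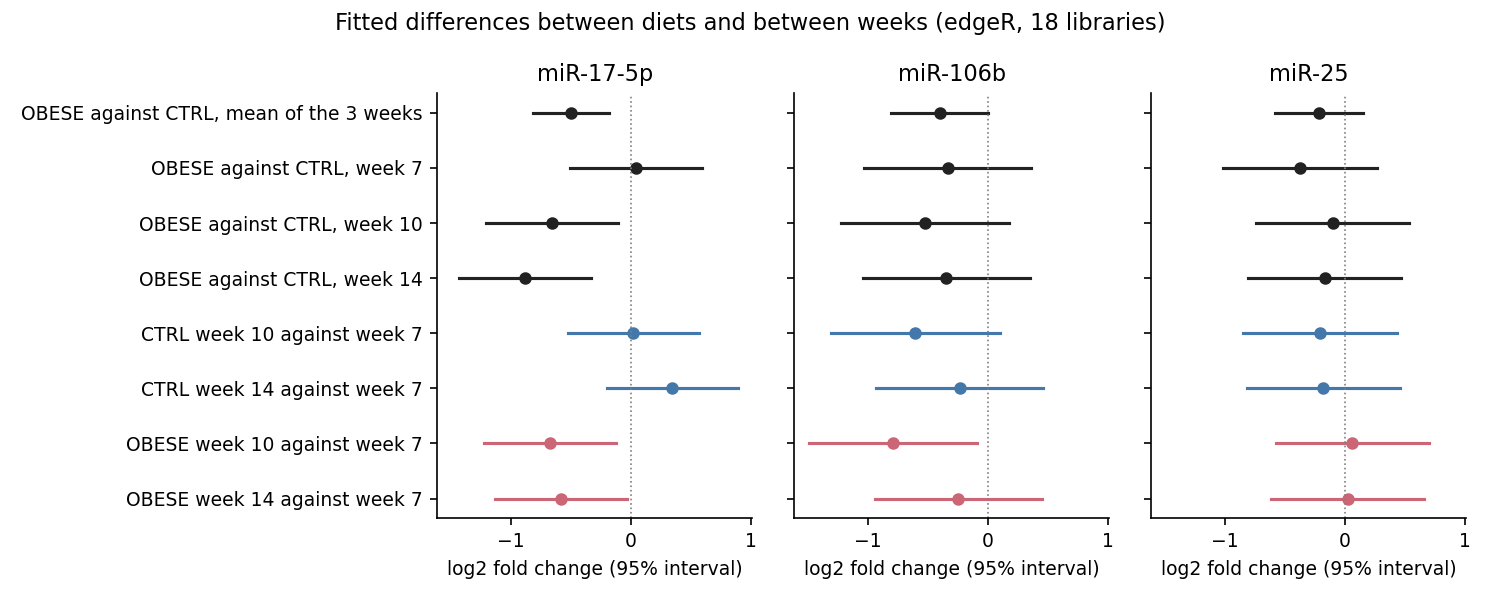
Fitted log2 fold changes (points) with 95% intervals (lines) of the 3 miRNAs for each comparison of diets (black) and of weeks within CTRL (blue) or OBESE (red). For miR-17-5p the intervals of the averaged diet difference, of weeks 10 and 14 between diets and of both OBESE week comparisons lie below 0. For miR-106b only that of OBESE week 10 against week 7 does (-1.49 to -0.09). No adjusted p passed, and for miR-25 every interval spans 0.

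miR-106b, which has the seed of miR-17-5p but comes from the MCM7 transcript, was the least counted of the 3. In CTRL plasma it stood at 287, 234 and 155 CPM at week 7, at 164, 136 and 145 CPM at week 10, and at 259, 130.4 and 185 CPM at week 14. In OBESE plasma it stood at 189, 174 and 172 CPM at week 7, at 108, 121 and 79.8 CPM at week 10, and at 156, 208 and 86.4 CPM at week 14. Only at week 10 were the OBESE libraries all below the CTRL libraries, and in OBESE week 10 they were also all below week 7. Such a separation was found in 6.55% of all features between the diets at week 10 and in 9.52% between these OBESE weeks.

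Group means of miR-106b ran from 225 ± 66.3 CPM in CTRL week 7 through 191 ± 64.4 in CTRL week 14, 178 ± 9.53 in OBESE week 7, 150.1 ± 60.9 in OBESE week 14 and 148 ± 14.7 in CTRL week 10 to 103 ± 20.9 CPM in OBESE week 10 (SD, n = 3 each). Neighbours overlapped, apart from the last pair. The CTRL week 7 mean was 194 CPM (n = 2) without replicate 1, which stood apart. Week 10 was the lowest week in both diets, with log2 fold changes against week 7 of -0.61 (SE 0.334) in CTRL and -0.79 (SE 0.333) in OBESE. The CTRL value was -0.40 without CTRL week 7 replicate 1, -0.39 without the pair that stood apart and -0.34 without TMM scaling. In the other direction it was -0.81 without CTRL week 7 replicate 3 and -0.68 without CTRL week 10 replicate 1. The edgeR adjusted p was 0.947 and 0.897, and neither passed.

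Between the diets miR-106b had a log2 fold change of -0.40 (SE 0.192, 95% interval -0.81 to 0.000867) averaged over weeks, from means of 144 ± 46.5 CPM (OBESE) and 188 ± 57.5 CPM (CTRL; SD over 9 libraries each). The edgeR adjusted p was 0.408. Its values by week were -0.34 (SE 0.332), -0.52 (SE 0.333) and -0.35 (SE 0.331) at weeks 7, 10 and 14, and its diet difference at week 14 against that at week 7 gave a log2 difference of -0.01 (SE 0.466). The week 7 value was -0.127 without CTRL week 7 replicate 1, -0.119 without the pair that stood apart, -0.0283 without TMM scaling and -0.54 without CTRL week 7 replicate 3. The week 14 value was -0.07 without either CTRL replicate 1 or OBESE replicate 3 of that week, -0.56 without CTRL replicate 2 and -0.65 without OBESE replicate 2.

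miR-25, which shares its host transcript with miR-106b but has the seed of miR-92a, was the most counted. In CTRL plasma it stood at 2516, 1226 and 992 CPM at week 7, at 1149, 1588 and 1359 CPM at week 10, and at 1042, 1240.1 and 1899 CPM at week 14. In OBESE plasma it stood at 1111, 1025 and 1519 CPM at week 7, at 1302, 1447 and 1068 CPM at week 10, and at 1296, 1226 and 1196 CPM at week 14. The diets overlapped at each week, and the highest values, 2516 and 1899 CPM, belonged to the pair of CTRL libraries that stood apart.

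Group means of miR-25 ran from 1578 ± 820.5 CPM in CTRL week 7 to 1218 ± 264 CPM in OBESE week 7 (SD, n = 3 each), and all neighbours in their order overlapped. CTRL week 7 was highest through replicate 1 alone. Without it the mean was 1109 CPM (n = 2), below OBESE week 7. Averaged over weeks the log2 fold change between diets was -0.21 (SE 0.175, 95% interval -0.58 to 0.15; edgeR adjusted p = 0.568), from means of 1243 ± 167 CPM (OBESE) and 1446 ± 490.5 CPM (CTRL; SD over 9 libraries each). Without the pair that stood apart, the 7 remaining CTRL libraries were at 1228 ± 201 CPM (SD) and the log2 fold change was 0.07. The direction between the diets also turned without TMM scaling, to 0.01. At week 7 the value of -0.37 (SE 0.304) became 0.14 without CTRL week 7 replicate 1.

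Averaged over weeks, the diet difference was negative for all 3 members, with a median log2 fold change of -0.40, against -0.00218 over all 168 features, of which 51.2% were negative. Without TMM scaling the median over all features moved to 0.16 and the members had -0.34, -0.22 and 0.01, so that miR-25 was positive. At week 10 the median was -0.52 with all 3 negative, where 51.2% of all features were, and at week 14 -0.35 with all 3 negative, where 50.6% were. At week 7 the value of miR-17-5p was positive. Without TMM scaling miR-25 was positive at weeks 10 and 14 as well. The members were chosen with earlier results of these data known, and these counts are descriptions.

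Ratios of raw counts within a library need no scaling between libraries. miR-17-5p and miR-106b kept the steadier ratio among the pairs of members, with 3.41 ± 0.847 counts of miR-17-5p per count of miR-106b (SD, n = 18; CV 24.9%, range 1.80 to 5.02). It averaged 3.45 ± 0.788 (CTRL) and 3.36 ± 0.947 (OBESE; SD over 9 libraries each), a difference smaller than the spread. miR-25 and miR-106b, which come from the same host gene, kept a less even ratio of 8.80 ± 2.96 (CV 33.7%), from 4.03 in CTRL week 14 replicate 1 to 13.8 in OBESE week 14 replicate 3. At week 10 this ratio was 12.1, 12.0 and 13.4 in OBESE and 6.99, 11.7 and 9.39 in CTRL libraries. There was no overlap, by a narrow margin of 12.0 against 11.7. miR-106b was itself among the 6.55% of features whose OBESE libraries all lay below CTRL at week 10. How often ratios of other pairs separate the diets was not counted.

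The ratio of miR-17-5p to miR-25 was 0.426 ± 0.191 (SD, n = 18; CV 44.8%). Its spread rests on CTRL week 14 replicate 1, since without that library the CV was 29.4%, against 30.8% for miR-25 to miR-106b and 25.2% for miR-17-5p to miR-106b, also without it. In OBESE plasma it was 0.530, 0.562 and 0.402 at week 7, 0.261, 0.256 and 0.375 at week 10, and 0.326, 0.305 and 0.326 at week 14, so that weeks 10 and 14 lay below week 7. In CTRL plasma it was 0.259, 0.405 and 0.584 at week 7, 0.583, 0.289 and 0.458 at week 10, and 1.05, 0.374 and 0.333 at week 14. The diets overlapped at each of weeks 7 and 10. At week 14 every OBESE library was below every CTRL library, by a narrow margin of 0.326 against 0.333. With TMM scaling miR-17-5p was itself among the 2.38% of features separated in that way at week 14. It was also among the 9.52% and 8.33% whose OBESE libraries of weeks 10 and 14 lay below OBESE week 7. How often ratios of other pairs separate these groups was not counted.

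**Figure D3:**
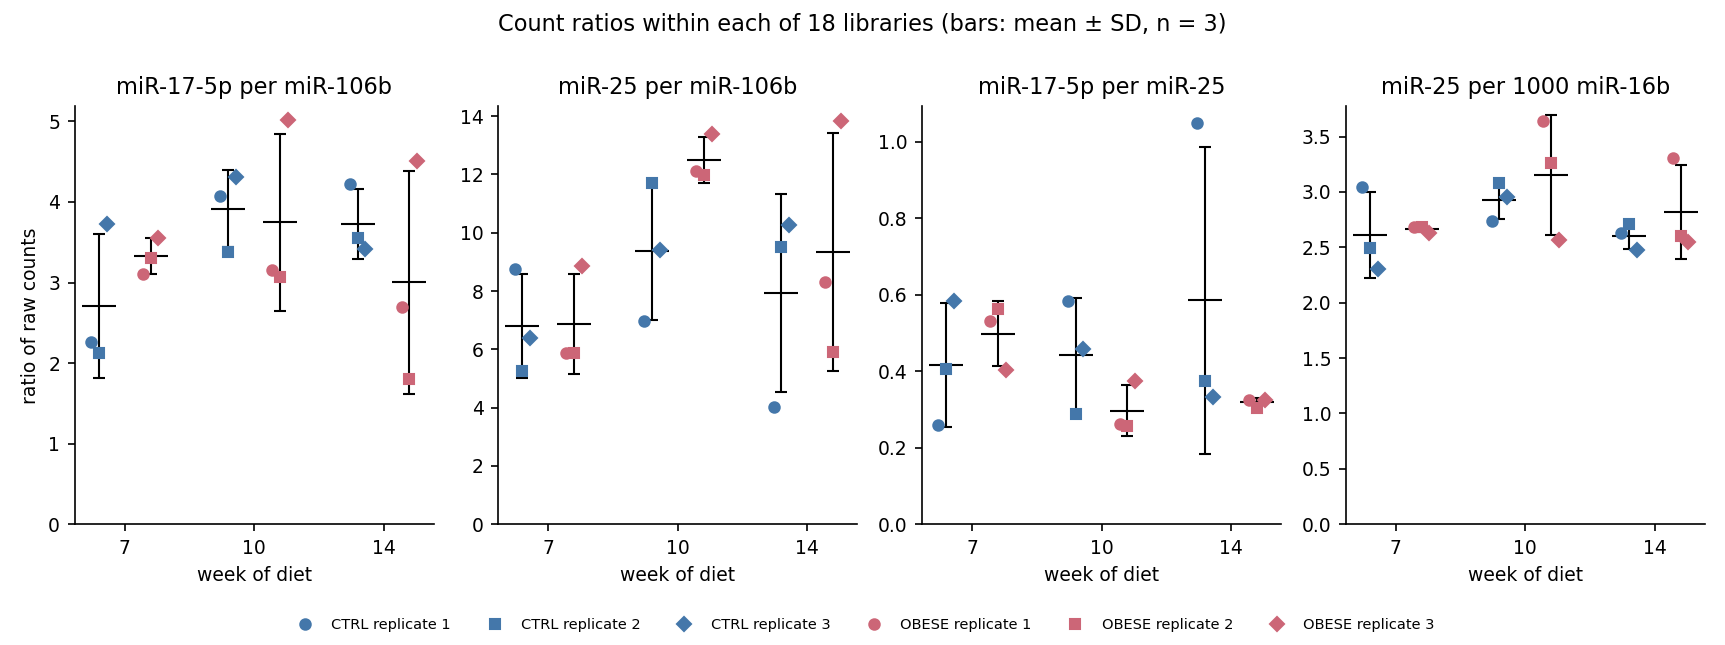
Ratios of raw counts within each library (y axes from 0) by week of diet, CTRL in blue and OBESE in red, with a marker shape per replicate number and bars for mean ± SD of 3 libraries. The ratio of miR-25 to miR-16b stays between 2.30 and 3.64 per 1000 in all 18 libraries, while that of miR-17-5p to miR-25 runs from 0.256 to 1.05.

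miR-25 took a steady share of each library. Its share of all counts had a CV of 12.5%, rank 3 from the smallest of the 168 features, and the CV was 27.5% for its level with TMM scaling. The ratio to miR-16b, the most abundant miRNA of these libraries and one that red blood cells carry in large amounts, was as steady. miR-16b is 42.7% to 55.1% of every library and its own share had a CV of 7.50%, so that this ratio is close to the share of the total and does not show that miR-25 moved with miR-16b. Each library held 2.80 ± 0.346 counts of miR-25 per 1000 counts of miR-16b (SD, n = 18), a range of 2.30 to 3.64 and a CV of 12.4%. This was the smallest CV of such a ratio among the 167 features other than miR-16b, and let-7i came next among the named ones with 15.8%. Without the pair of libraries that stood apart, miR-25 had 12.6% and rank 3, with let-7i at rank 1 (10.2%). The ratio was 2.71 ± 0.271 (CTRL) and 2.88 ± 0.407 (OBESE; SD over 9 libraries each), and the diets overlapped at each week.

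The other members took less steady shares, with a CV of 30.1% for miR-106b and 36.5% for miR-17-5p. In ratio to miR-16b, miR-106b, from the same host gene as miR-25, had 0.352 ± 0.117 counts per 1000 of miR-16b (CV 33.2%), and miR-17-5p had 1.17 ± 0.475 (CV 40.7%), against a median CV of 35.6% over the named features. Of the 11 red blood cell miRNAs looked for, miR-16b alone is named in the table, and miR-451, miR-486 and miR-144 were not analysed here. Its level ran from 396060 to 826078 CPM in CTRL and from 357921 to 577118 CPM in OBESE libraries. The pair of CTRL libraries that stood apart held the highest values, 826078 and 767194 CPM. Without that pair the CTRL libraries reached at most 515334 CPM, below the highest OBESE library. Whether red blood cells or their breakdown have a part in the miR-25 values was not tested.

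Over the 18 libraries, which share a scaling and may share ewes, the log2 levels of miR-17-5p and miR-106b had a Spearman correlation of 0.62. It was 0.56 without the pair that stood apart and 0.51 without TMM scaling. miR-25 had 0.02 with miR-106b and -0.01 with miR-17-5p, which became -0.27 and -0.29 without that pair and -0.43 and -0.45 without TMM scaling. With miR-16b it had 0.64, and 0.49 without the pair or 0.25 without TMM scaling. miR-25 also had a correlation of -0.66 with the TMM factor, against -0.26 for miR-17-5p and -0.34 for miR-106b. These levels are themselves divided by that factor, so a negative correlation is partly built in. Without TMM scaling the values were -0.23 for miR-25, 0.28 for miR-17-5p and 0.00310 for miR-106b.

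**Figure D4:**
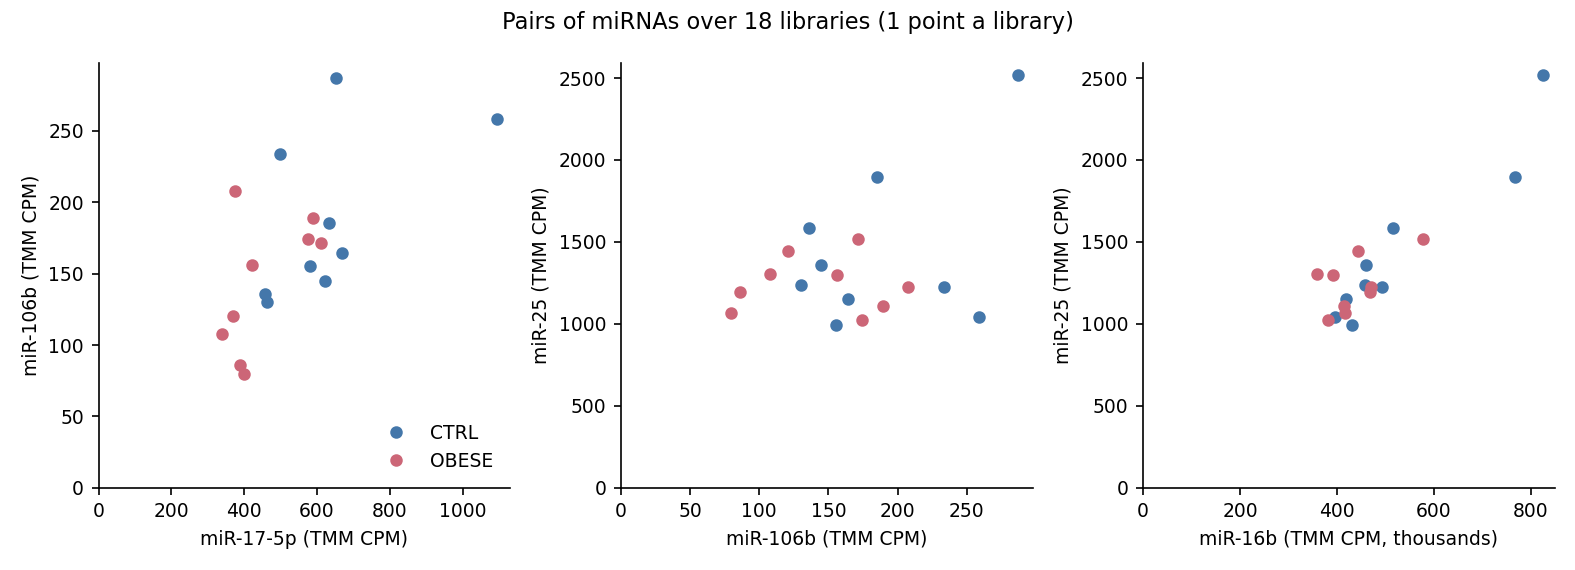
TMM-scaled levels of miR-106b against miR-17-5p (left), miR-25 against miR-106b (middle) and miR-25 against miR-16b (right, x axis in CPM divided by 1000), 1 point per library, CTRL in blue and OBESE in red, all axes from 0. The right panel shows the 2 CTRL libraries with low TMM factors at the upper end for both miRNAs, and the Spearman correlations over 18 libraries are 0.62, 0.02 and 0.64.

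Among the 53 other named miRNAs tested, those most like miR-17-5p in Spearman correlation over the 18 libraries were let-7g (0.76), miR-106b (0.62) and let-7i (0.49). let-7g and let-7i belong to the let-7 family, which restrains growth. let-7g stood at 36339 ± 3455 CPM (OBESE) and 41933 ± 6843 CPM (CTRL; SD over 9 libraries each). Those most like miR-106b were miR-17-5p (0.62), let-7d (0.53) and let-7g (0.51). Those most like miR-25 were miR-16b (0.64), miR-125b (0.61) and miR-103 (0.48). Without TMM scaling let-7g ranked 2nd for miR-17-5p at 0.70, miR-106b 5th at 0.51 and let-7i 6th at 0.45. let-7d then had 0.23 and let-7g 0.24 with miR-106b. With miR-25, miR-16b and miR-125b had 0.25 each and miR-103 had 0.12.

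The other named miRNAs of these clusters were close to the limit of detection. miR-19b, whose gene is listed next to that of miR-17-5p in the RefSeq annotation, was counted 0 to 16 times per library. It had 121 counts in all and was found in 17 of 18 libraries. There were 59.8 counts of miR-17-5p for each count of miR-19b. Efficiencies of ligation differ between miRNAs, so a ratio of counts is not one of molecules in plasma. The miR-19b counts summed to 18, 19 and 23 in CTRL and to 19, 30 and 12 in OBESE plasma at weeks 7, 10 and 14, or 60 and 61 over the 3 weeks. miR-106a, from a further paralogous cluster on the X chromosome, had 5 counts in 4 libraries, 1 in CTRL and 4 in OBESE. Both were left out by the filter and carry no comparison.

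Levels of other cell types were set beside these values. The 3 platelet miRNAs of 6 looked for (miR-191, miR-21 and miR-199a-3p) summed to 33343 to 42156 CPM in OBESE and 28842 to 32993 CPM in CTRL libraries at week 7. Every OBESE library was above every CTRL library, by a narrow margin of 33343 against 32993 CPM. The share of all features separated in that direction at week 7 is not given here, so this is a description only. The sums ran from 34089 to 56018 and from 29924 to 44471 CPM at week 10, and from 24785 to 38833 and from 31455 to 39733 CPM at week 14, with overlap at both. miR-150, the 1 of 3 lymphocyte miRNAs named, stood at 5558 to 8296 CPM in OBESE week 7, 8649 to 26777 CPM in OBESE week 10 and 2815 to 3445 CPM in OBESE week 14. It stood at 2363 to 12151 CPM in CTRL week 7, 3657 to 12943 CPM in CTRL week 10 and 2529 to 4026 CPM in CTRL week 14. The muscle miRNA miR-133 stayed at or under 127 CPM and the liver miRNA miR-194 at or under 147 CPM, with 1 of 3 miRNAs named for each tissue. The part of these cells in the miR-17-5p values was not tested.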

How the data were processed

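Raw counts per miRNA were deposited by the authors for 18 plasma libraries, as 1 table and as separate files of each library, which differed in 0 values. The labels' protocols name a QIAseq miRNA kit with molecular identifiers used for deduplication and reads 76 nucleotides long. Tools listed in the submitters' processing notes, with no role, are Bowtie 1.3.1, cutadapt 4.9 and DESeq2 1.42. The genome build is not given in the sources used here.

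R 4.3.3 and edgeR 4.0.16 were used. The filter on low counts was edgeR's filterByExpr (at least 10 counts, total 15, groups as design), and 168 features passed, 54 of them named. TMM factors ran from 0.653 to 1.19. A quasi-likelihood model with 6 groups was fitted to all libraries, with two-sided tests and Benjamini-Hochberg adjustment over the 168 features (threshold 0.05). SEs come from log2 fold changes and F statistics and are approximate. Alternatives used DESeq2 1.42.0, limma 3.58.1 (voom), other scalings, no filter, a replicate block and libraries left out. The edgeR step was tested on simulated data. Correlations used log2 CPM with a prior count of 2. Within groups 18 pairs of libraries were compared, with a chi-square per degree of freedom of at least 30.5, which is more than counting noise and does not tell separate ewes from repeat preparations. Each library was counted as 1 sample. The CVs of ratios without 1 library were added after seeing the data.

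Named miRNAs are the 3 members, the 3 named miRNAs most correlated with each, other miRNAs of the clusters and marker lists. Members and lists were chosen with earlier results of these data known. No miRNA sequence is printed.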

Additional observations from a re-analysis of the deposited data

How the results depend on the processing

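With edgeR 0 of 168 features passed in each of the 9 comparisons, with 3 to 19 at an unadjusted p under 0.05. limma-voom, on the same 168, gave 0 calls and 3 to 20. DESeq2 was run on all 364 features without this filter, so its counts are not on the same base. It gave 2 calls for the averaged diet difference, 0 in the other 8, and 5 to 27. With edgeR the averaged count was 4 without the filter, also over 364 features. When 1 library was left out, edgeR gave 0 to 2. There was 1 call without OBESE week 7 replicate 2, and there were 2 without OBESE week 10 replicate 1. The log2 fold change of miR-17-5p averaged over weeks ranged from -0.60 to -0.34 over 30 alternatives, and 1 of them passed. A fit of the compared groups alone does not apply to the averaged and interaction comparisons, which use all groups. Filtering features anew without CTRL week 14 replicate 2, an alternative chosen after seeing the data, tested 180 features and gave 1 call for the averaged difference and 1 at week 14, both miR-17-5p (-0.60, edgeR adjusted p = 0.0483, and -1.15, edgeR adjusted p = 0.0308); with the 168 features kept, the adjusted p was 0.0731 and 0.0547. The adjusted p over all alternatives ranged from 0.0483 to 0.639 and from 0.0308 to 0.771.

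Directions that turned were mostly those of miR-25. Without TMM it had 0.0135 for the averaged diet difference, 0.0196 and 0.0562 at weeks 10 and 14, and 0.109 for CTRL week 10 against week 7 (0.0450 with totals without miR-16b), and without the filter 0.0751 at week 10. Without both libraries with low TMM factors it had 0.0741 averaged, 0.146 and 0.163 at weeks 7 and 14, and 0.308 and 0.0172 for CTRL weeks 10 and 14 against week 7. The cause was not tested. Leaving out 1 library, the miR-25 diet difference ranged from -0.62 to 0.14, from -0.21 to 0.00900 and from -0.34 to 0.12 at weeks 7, 10 and 14, its CTRL changes from -0.45 to 0.30 (week 10) and -0.47 to 0.33 (week 14), and its OBESE changes from -0.0395 to 0.25 and -0.10 to 0.21. miR-17-5p ranged from -0.0555 to 0.14 between diets at week 7 and from -0.0888 to 0.24 and -0.0715 to 0.58 for CTRL weeks 10 and 14, and miR-106b from -0.55 to 0.0260 for OBESE week 14.

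Replicate numbers were not taken as pairing the libraries. Same-numbered libraries of a diet correlated in their deviations from group means at 0.01 to 0.50 in CTRL and -0.02 to 0.69 in OBESE, and 17 of 18 libraries correlated best with their own number, a hint from the data only. With a replicate block 0 features passed in any comparison, and miR-17-5p had -0.47 averaged over weeks (edgeR adjusted p = 0.0727). In the diet comparisons this block joined same-numbered libraries of both diets, which come from different ewes. Their deviations had a median correlation of 0.06 within a week. The value of 0.0727 thus does not allow for an ewe giving several libraries of its diet. With diet and replicate number together as a random effect in limma-voom the adjusted p was 0.426. With counts of each diet and number summed over weeks it was 0.639 in edgeR. The median 95% interval reached 0.532 (log2) either side for the averaged diet difference and 0.925 at week 7.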
